A study of Mus musculus with 9 samples.

Results

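RNA was compared between jejunal crypts of double-mutant mice, in which Smad4 was deleted and beta-catenin was stabilised, and those of control mice. The comparison used 6 of the 9 libraries of the study, 3 from each group, all held in 1 table of FPKM values (fragment counts scaled to transcript length and library size). Of its 23951 genes, the 11762 whose mean over the 6 libraries reached 1 FPKM were tested on log2(FPKM + 1). The other 12189 fell below that level, and 5964 of them were listed at 0 in every library.

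The double mutants had the genotype Smad4f/f; Ex3f/+;Villin-CreER(T2). Both Smad4 alleles were floxed, and 1 allele of Ctnnb1, the gene of beta-catenin, carried a floxed exon 3. The Villin promoter directs the recombinase to the epithelium of the intestine, and tamoxifen activates it, so other cells in a preparation keep their alleles. Tamoxifen was injected on 4 consecutive days and crypts were collected 1 day later. Controls are given only as control mice. Their treatment is vehicle in the sample labels, while the design text has them uninjected, and no label states that they carried the floxed alleles or the recombinase. Tamoxifen, recombinase activity and genotype therefore cannot be told apart. A group of Smad4 KO libraries, Smad4f/f;Villin-CreER(T2) with the same tamoxifen course, is cited only beside the double mutants, from a table that was normalized separately and shares the control libraries. In all groups 3 mM EDTA was used to free the crypts, and a 70 micron filter to isolate them. Strain, age and sex of the mice are not given in the sources used here. Whether each library is from its own mouse is not labelled, and p-values therefore measure the spread between libraries.

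As background, crypts are the pockets of the intestinal lining in which stem cells divide, next to Paneth cells and below the progenitors that mature on their way to the villus. Wnt ligands at the crypt base block the degradation of beta-catenin, which then joins TCF factors at the promoters of stem cell and proliferation genes. Exon 3 of Ctnnb1 encodes the residues whose phosphorylation marks the protein for destruction, and its loss leaves a stable protein. BMP ligands, made mainly by the mesenchyme near the villus, act through receptors that phosphorylate SMAD proteins. Smad4 is the partner that these SMADs share with those of the TGF-beta branch, and BMP signalling is known to favour maturation and to limit the stem cell zone.

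The 50 highest genes held between 28.7% (double mutant 1) and 47.4% (control 0) of the summed FPKM of a library. That sum ran from 573491 to 758719, between 11269 and 11728 genes reached 1 FPKM, and the Paneth cell defensin Defa24 was the highest gene in each of the 6, with 2.82% to 8.31% of the sum. Pearson correlations of log2(FPKM + 1) over the genes tested, which are not independent replicates, were 0.886 to 0.907 within groups and 0.833 to 0.873 between groups. The first principal component held 36.7% of the variance and placed all controls on one side and all double mutants on the other. Markers of crypt epithelium were present in all libraries: Epcam was at 707, 883 and 999.8 FPKM in the controls and 916, 984 and 825 in the double mutants, and the proliferation marker Mki67 was at 42.1, 63.5 and 37.8 FPKM in the controls and 47.1, 63.1 and 54 in the double mutants. Values of a gene are given throughout in the order of libraries 0, 1 and 2. By sex-linked transcripts, controls 0 and 1 and double mutant 1 were male, and control 2 and double mutants 0 and 2 female. Double mutant 0 held more RNA of connective tissue and blood, with Dcn, a fibroblast proteoglycan, at 0.784, 0.23 and 0.921 FPKM in the controls and 27.2, 0.693 and 0.674 in the double mutants and the globin Hbb-b1 at 4.67, 1.47 and 1.06 FPKM in the controls and 26.1, 1.18 and 0.555 in the double mutants.

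Of the 11762 genes, 1104 were higher and 1069 lower in double mutants (limma, adjusted p below 0.05), 18.5% in all, with 9.39% called higher and 9.09% called lower. Each list of genes below is read against these shares. Counts of called members with a library left out take rises and falls together. Where a list had 0 calls in a direction, the number at an unadjusted limma p below 0.05 follows in brackets as unadjusted. The median log2 fold change of all genes tested was -0.00. The lower genes moved further: 379 genes fell and 131 rose at least 2-fold on the FPKM + 1 scale, 86 fell and 14 rose at least 4-fold, and 20 fell and 5 rose at least 8-fold. The 5 that rose at least 8-fold were all small RNA entries (Snord53, Mir7082, Mir6386, Mir5113 and Snord15a). Among all genes tested, 42.6% had groups that did not overlap, 21.3% with the double mutants above and 21.3% below all controls. With 3 libraries against 3, the exact two-sided permutation test of 1 gene cannot give a p under 0.1, so calls rest on the variance that limma shares between genes.

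**Figure D1:**
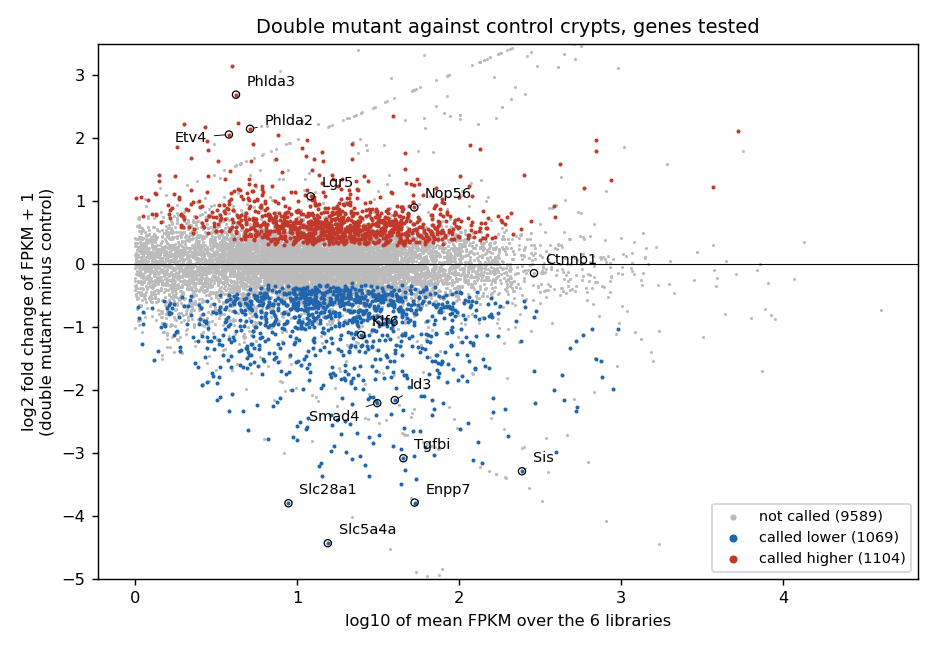
Log2 fold change of FPKM + 1 (double mutant minus control, vertical axis) against the log10 of mean FPKM (horizontal axis) for the genes tested, with red and blue points for genes called higher and lower and grey points for the rest. The lower genes reach further from 0 than the higher ones, and the diagonal run of grey points includes the 83 tested genes listed above 0 in only 1 library. The 48 genes outside the vertical range are not drawn.

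The number of calls rested on the libraries entered. It was 657 higher and 898 lower without control 0, 688 and 487 without control 1, and 533 and 531 without control 2. Without double mutant 1 it was 338 and 370, without double mutant 0 it was 78 and 61, and without double mutant 2 it was 18 and 12. Each called gene that could be tested kept its sign in each of these fits. The genes called in all 6 fits numbered 23, 11 higher and 12 lower. Those that rose were Etv4, Phlda2, R3hdml, Pdgfa, Mif, Bola1 and 5 small RNA entries (Mir5113, Mir6386, Mir7082, Snord15a and Snord53). Those that fell were Smad4, Id3, Slc28a1, Slc28a2, Klf6, Ada, Akr1c14, Scin, Gprin3, Gyk, Pdk2 and Mir26b. Every other called gene named below lost its call in at least 1 of the 6 fits, and of the 148 called genes considered for naming 135 lost it without double mutant 2 and 110 without double mutant 0.

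**Figure D2:**
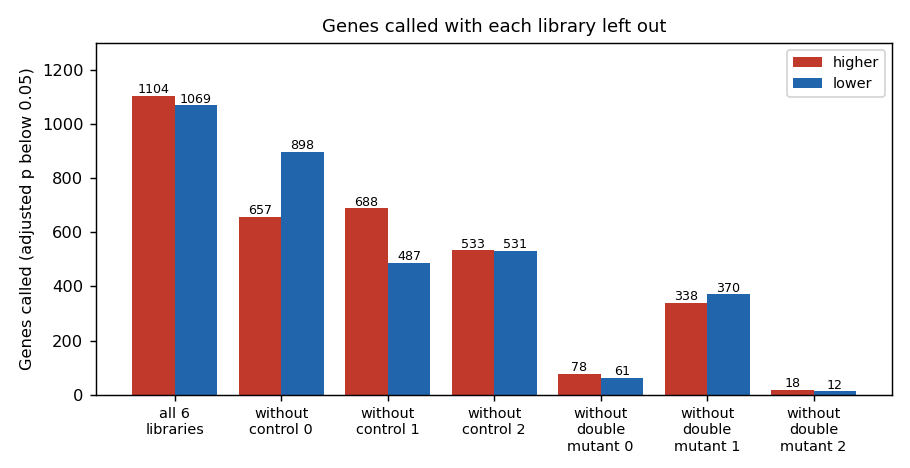
Number of genes called higher (red) and lower (blue) at an adjusted p below 0.05 with all 6 libraries and with each library left out in turn. Calls fell from 1104 higher and 1069 lower to 18 and 12 without double mutant 2 and to 78 and 61 without double mutant 0.

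Smad4 itself fell in all double-mutant libraries, at 47.5, 58.8 and 49.8 FPKM in the controls and 11.2, 10.2 and 9.95 in the double mutants. The level was 20.1% of control (log2 fold change -2.21 with SE 0.11 and limma adjusted p = 0.00176), and the groups were far apart. Smad4 KO crypts stood at 11, 9.96 and 10.8 FPKM. Ctnnb1 transcripts did not pass the test, at 289, 294 and 327 FPKM in the controls and 239, 312 and 278 in the double mutants (log2 fold change -0.14 with SE 0.14 and limma adjusted p = 0.509). The FPKM of the whole gene does not show whether exon 3 was removed, so the second allele change has no check in these values.

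Among genes that answer to BMP and TGF-beta signals, more fell than rose. Of 24 listed SMAD response genes 18 were tested, of which 4 fell (Id1, Id2, Id3 and Tgfbi), 1 rose (Pmepa1) and 13 were not called, with a median log2 fold change of -0.29 against -0.00 for all genes. Id3, a dominant negative partner of basic helix-loop-helix factors and a direct BMP target, was at 55.6, 63.8 and 79 FPKM in the controls and 12.9, 17.3 and 11.9 in the double mutants (log2 fold change -2.16 with SE 0.18 and limma adjusted p = 0.00694). Tgfbi, an extracellular matrix protein named for its induction by TGF-beta, fell furthest of the list, with 57.6, 74.1 and 114 FPKM in the controls and 6.37, 10.1 and 9.14 in the double mutants (log2 fold change -3.08 with SE 0.28 and limma adjusted p = 0.00758). Control 2 was the highest control for both genes, and no double mutant came near the lowest control. Id2 was at 25.7, 29.6 and 36.9 FPKM in the controls and 6.46, 8.74 and 11.5 in the double mutants (log2 fold change -1.70 with SE 0.22 and limma adjusted p = 0.0126). Pmepa1, a TGF-beta-induced inhibitor of the pathway, went the other way, at 4.08, 3.36 and 2.37 FPKM in the controls and 6.97, 7.07 and 6.38 in the double mutants (log2 fold change 0.89 with SE 0.17 and limma adjusted p = 0.0234). The inhibitory SMADs, which feed back on the pathway, did not pass: Smad6 had a log2 fold change of -0.80 (limma adjusted p = 0.0938) and Smad7 of -0.69 (limma adjusted p = 0.0579). The mean log2 level of the list, relative to the control mean, was -0.08, -0.00 and 0.08 in the controls and -0.48, -0.46 and -0.48 in the double mutants, so the double mutants lay close together. The number of members called was 7, 3 and 4 without controls 0, 1 and 2, and 3, 3 and 1 without double mutants 0, 1 and 2.

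**Figure D3:**
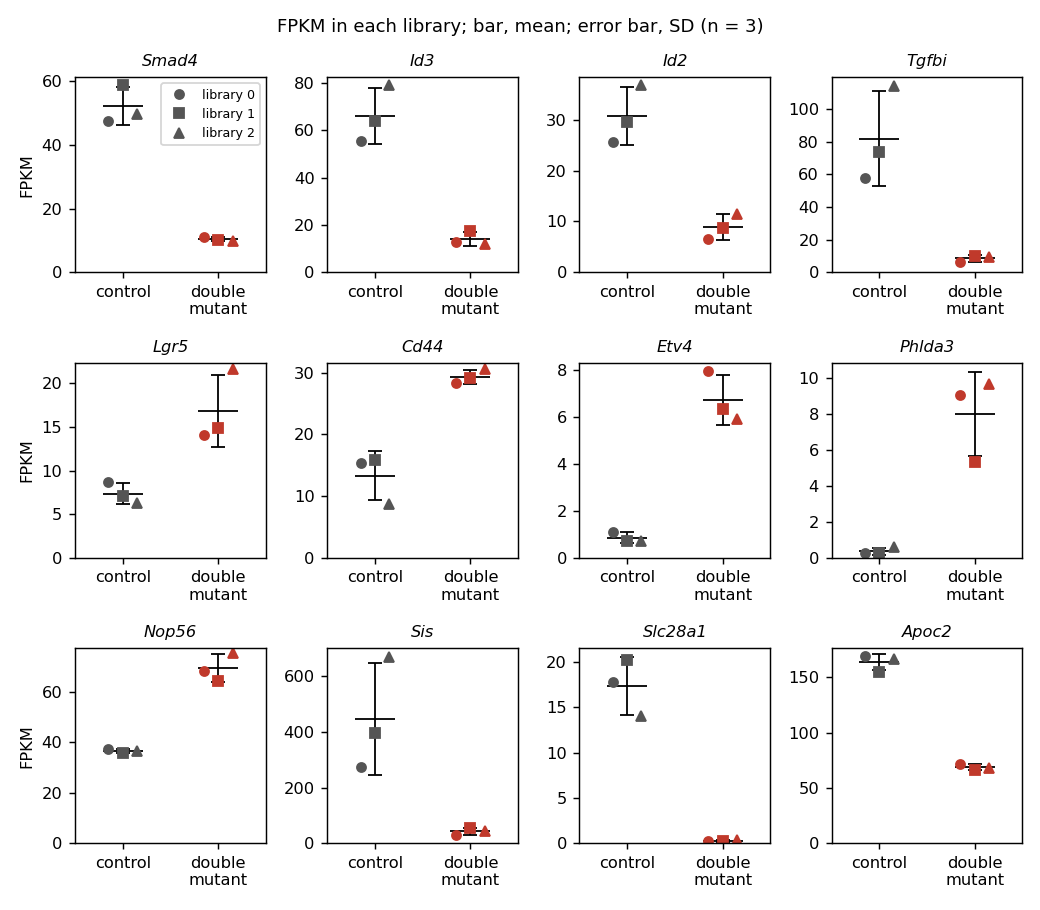
FPKM of 12 genes in each library (vertical axes start at 0), controls in grey and double mutants in red, with a circle, square and triangle for libraries 0, 1 and 2, a bar for the mean and an error bar for the SD of 3 libraries. The 12 genes were chosen among the called genes, and in none of them does a double mutant overlap a control. Among all genes tested, 42.6% had groups that did not overlap. The control spread is widest for Sis and Tgfbi.

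The promoters of Id2 and Tgfbi, which both hold a GC-rich SMAD element, are shown because both genes fell. Promoter sequences are from RefSeq on GRCm38.p6 and cover 250 bases before to 50 after a gene's start, and 8717 of the genes tested were matched by symbol. Each stretch is 120 bases, 5′ to 3′ on the gene's strand, with the motif in capitals.
Id2, chr12:25096223-25096342, minus strand: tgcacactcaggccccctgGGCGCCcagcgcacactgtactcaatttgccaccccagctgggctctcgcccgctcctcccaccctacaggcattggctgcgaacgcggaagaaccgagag
Tgfbi, chr13:56609449-56609568, plus strand: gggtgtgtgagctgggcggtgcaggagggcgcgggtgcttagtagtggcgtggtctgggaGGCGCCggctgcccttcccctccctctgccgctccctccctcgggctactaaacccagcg
The motif searched was GGCGCC, which reads the same on both strands. It was in 40% of the 20 windows of the tested SMAD response genes and in 20.9% of the 11097 windows of all tested genes, 22.7% of those of higher and 16.7% of those of lower genes. The list's other 5 genes with a match, Nbl1, Ski, Smurf2, Id4 and Tsc22d1, were not called, with log2 fold changes of -0.89, 0.04, -0.31, 0.74 and -0.55. A match is a description of the letters, not evidence of binding.

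Among ligands, receptors and SMADs of the pathway other than Smad4, 16 were tested, of which 1 rose and 2 fell. Of all genes tested, 9.39% rose and 9.09% fell. Tgfbr2, the type II receptor of TGF-beta, rose, at 2.83, 3.84 and 2.96 FPKM in the controls and 7.51, 7.49 and 5.94 in the double mutants (log2 fold change 0.92 with SE 0.15 and limma adjusted p = 0.0171). Bmp2, an epithelial BMP ligand, fell to 52.9% of control (log2 fold change -0.64 with SE 0.13 and limma adjusted p = 0.0248), and Smad1, a BMP-branch SMAD, to 71.8% (log2 fold change -0.46 with SE 0.11 and limma adjusted p = 0.0389). Receptor Bmpr1a had a log2 fold change of -0.15 and Smad2 of -0.10, both uncalled. Counts of called members were 2, 2 and 1 without controls 0, 1 and 2, and 0, 0 and 0 without double mutants 0, 1 and 2.

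Part of a list of Wnt targets, feedback genes and some receptors, called Wnt targets below, rose. Of its 23 tested members 5 rose and 0 fell (0 unadjusted), 21.7% against the 9.39% of all genes, with a median log2 fold change of 0.33. The 5 were Lgr5, Cd44, Fzd7, Ccnd1 and Lrp5. Of these, Fzd7 and Lrp5 are receptors of the pathway, while Fzd2 and Lrp6 are counted in a separate list of receptors and cofactors. Lgr5, the R-spondin receptor that marks crypt base stem cells, was at 8.69, 7.12 and 6.3 FPKM in the controls and 14.1, 14.9 and 21.6 in the double mutants (log2 fold change 1.08 with SE 0.19 and limma adjusted p = 0.0203). All 3 double mutants were above all controls, and double mutant 2 was the highest. Cd44, an adhesion receptor of crypt cells, was at 15.4, 15.9 and 8.73 FPKM in the controls and 28.3, 29.1 and 30.5 in the double mutants (log2 fold change 1.12 with SE 0.22 and limma adjusted p = 0.025). Fzd7, a Wnt receptor, had a log2 fold change of 0.77 (limma adjusted p = 0.0169), Ccnd1, a G1 cyclin, of 0.55 (limma adjusted p = 0.0366) and the co-receptor Lrp5 of 0.44 (limma adjusted p = 0.0329).

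The feedback genes of the pathway were not among those called. Axin2, a scaffold of the destruction complex and a standard readout of beta-catenin, was at 34.2, 35.3 and 23.3 FPKM in the controls and 27.7, 32.5 and 39.6 in the double mutants (log2 fold change 0.11 with SE 0.20 and limma adjusted p = 0.724). The groups overlapped. Sp5, Ascl2 and Myc, also targets, had log2 fold changes of -0.03, 0.14 and 0.35 (limma adjusted p = 0.929, 0.763 and 0.329). Rnf43 and Znrf3, ligases that remove Wnt receptors, had 0.32 and 0.22, uncalled. Among 28 tested receptors, destruction complex members and cofactors, Fzd2 rose (log2 fold change 0.81 with SE 0.15 and limma adjusted p = 0.0236) and the co-receptor Lrp6 fell (log2 fold change -0.53 with SE 0.10 and limma adjusted p = 0.0236). Both calls are fewer than the shares of all genes, 9.39% higher and 9.09% lower. In this list 2 rose and 1 fell without control 0, and only 1 rose without control 1 or control 2. With any double mutant left out, 0 of its members were called. The number of called Wnt targets was 5, 3 and 3 without controls 0, 1 and 2, and 0, 2 and 0 without double mutants 0, 1 and 2. The TCF motif CTTTGAT, searched with its complement ATCAAAG, was in 21.1% of the 19 windows of tested Wnt targets, those of Sp5, Mmp7 and Tnfrsf19, and in 2.51% of those of all tested genes. None of these 3 genes was called. The motif was in 1.87% of the windows of higher and 2.25% of those of lower genes.

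Some stem cell genes, a list that shares Lgr5, Axin2 and other members with the Wnt targets, also rose. Of 33 tested members 8 rose and 0 fell (1 unadjusted), with a median of 0.33. Besides Lgr5 these were Phlda1, Scn2b, Igfbp4, Gkn3, Msi1, Smoc2 and Lrig1. Smoc2, a matrix protein of crypt base cells, was at 57.5, 60.02 and 50.4 FPKM in the controls and 93.4, 92.3 and 107 in the double mutants (log2 fold change 0.79 with SE 0.11 and limma adjusted p = 0.0142). Igfbp4, an IGF-binding protein, was at 16.4, 12.8 and 11.9 FPKM in the controls and 30.2, 22.1 and 30.7 in the double mutants (log2 fold change 0.96 with SE 0.17 and limma adjusted p = 0.021), and no double mutant overlapped a control. Lrig1, which dampens ERBB receptors in stem cells, had a log2 fold change of 0.62 with SE 0.11 and limma adjusted p = 0.0203. The most abundant marker, Olfm4, did not pass, at 1011, 1521 and 609.98 FPKM in the controls and 770.4, 1171 and 1361 in the double mutants (log2 fold change 0.13 with SE 0.39 and limma adjusted p = 0.835). Control 2 had the lowest mean of this list: 0.14, 0.14 and -0.28 in the controls and 0.25, 0.33 and 0.57 in the double mutants, on the log2 scale relative to the control mean. Members called numbered 7, 3 and 3 without controls 0, 1 and 2, and 1, 3 and 0 without double mutants 0, 1 and 2. With sex as a covariate 4 rose, and with no filter on low values 4.

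Genes of mature enterocytes, the absorptive cells, fell in large numbers. Of 20 tested members of a list made up mainly of brush border digestive enzymes, 15 fell and 0 rose (0 unadjusted). Those that fell made up 75%, against the 9.09% of all genes, and the median log2 fold change was -2.18. Sis, sucrase-isomaltase, was at 274, 396 and 668 FPKM in the controls and 29.8, 54.5 and 44.6 in the double mutants. Double mutants were at 9.63% of the control mean (log2 fold change -3.29 with SE 0.37 and limma adjusted p = 0.0107). Control 2 held more than the other controls, yet the lowest control was well above the highest double mutant. Lct, lactase, was at 40.9, 58.3 and 155 FPKM in the controls and 2.67, 8.11 and 11.9 in the double mutants (log2 fold change -3.27 with SE 0.63 and limma adjusted p = 0.0243). Enpp7, an alkaline sphingomyelinase, fell by 3.79 on the log2 scale and Mme, the peptidase neprilysin, by 3.18 (limma adjusted p = 0.0215 and 0.0169). Mgam, Mep1b, Naaladl1, Akp3 and Lgmn were not called, with log2 fold changes of -1.0, -1.72, -1.01, -0.88 and 0.79. Lgmn encodes a lysosomal protease and not a brush border enzyme.

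Nutrient transporters followed: 20 of 34 fell and 1 rose, with a median of -1.66. Slc28a1, the concentrative pyrimidine nucleoside transporter, was at 17.8, 20.3 and 14 FPKM in the controls and 0.263, 0.236 and 0.426 in the double mutants (log2 fold change -3.80 with SE 0.16 and limma adjusted p = 0.00133), and the level in double mutants was 1.78% of control. Its relative Slc28a2, which prefers purine nucleosides, was at 7.09, 7.74 and 8.91 FPKM in the controls and 1.55, 2.1 and 1.88 in the double mutants (log2 fold change -1.65 with SE 0.13 and limma adjusted p = 0.00694). These 2 genes kept their calls whichever library was left out. Slc15a1, the peptide transporter PEPT1, had a log2 fold change of -3.49 with SE 0.57 and limma adjusted p = 0.0179, and the apical sugar carriers Slc5a1 and Slc2a5 had log2 fold changes of -2.20 and -2.12 (limma adjusted p = 0.0195 and 0.0155). The exception was Slc29a1, an equilibrative nucleoside transporter, which rose: 30.1, 22.1 and 24.1 FPKM in the controls and 50.8, 35.2 and 41 in the double mutants (log2 fold change 0.71 with SE 0.17 and limma adjusted p = 0.0395). Slc5a4a, a member of the sodium-glucose transporter family, was at 10.5, 19.8 and 62.1 FPKM in the controls and 0.0713, 0.173 and 0.188 in the double mutants (log2 fold change -4.43 with SE 0.58 and limma adjusted p = 0.0127). The similar copy Slc5a4b also fell (log2 fold change -3.21 with SE 0.61 and limma adjusted p = 0.0236), and reads may be split between the 2.

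Genes of fat absorption and of the microvillus also fell. Of 26 tested fat absorption genes 11 fell and 0 rose (0 unadjusted, median -1.24). Apoc3 and Apoc2, apolipoproteins of lipid particles, differed in spread. Apoc3 was at 85.7, 198 and 388 FPKM in the controls and 13.8, 26.7 and 24.2 in the double mutants (log2 fold change -3.11 with SE 0.55 and limma adjusted p = 0.0207). Apoc2 was at 169, 155 and 166 FPKM in the controls and 71.5, 66.4 and 68 in the double mutants (log2 fold change -1.24 with SE 0.09 and limma adjusted p = 0.00676). Cd36, a fatty acid receptor, had a log2 fold change of -2.63 with SE 0.40 and limma adjusted p = 0.0164. Of 27 microvillus genes 11 fell and 0 rose (1 unadjusted, median -0.76), among them Cobl, an actin nucleator, at 22.7, 27.3 and 39.1 FPKM in the controls and 7.12, 7.53 and 7.72 in the double mutants (log2 fold change -1.82 with SE 0.19 and limma adjusted p = 0.0102) and Espn, an actin bundler, at 19.3, 22.3 and 29.4 FPKM in the controls and 8.97, 9.41 and 9.38 in the double mutants (log2 fold change -1.25 with SE 0.16 and limma adjusted p = 0.0124). Vil1, villin, whose promoter drives the recombinase, was not called, at 387, 391 and 710.03 FPKM in the controls and 209, 288 and 250.3 in the double mutants (limma adjusted p = 0.0625).

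Some transcription factors of enterocytes fell. Of 29 tested, 9 fell and 0 rose (0 unadjusted, median -0.48). The 4 called members with the smallest p were Ppargc1a, a coactivator of mitochondrial genes (log2 fold change -2.19 with SE 0.20 and limma adjusted p = 0.00791), Maf (log2 fold change -3.09 with SE 0.32 and limma adjusted p = 0.00997), Ppard, a fatty acid receptor (log2 fold change -0.77 with SE 0.11 and limma adjusted p = 0.0136), and Hnf4g (log2 fold change -1.67 with SE 0.26 and limma adjusted p = 0.017). Vdr, Ppara, Nr5a2, Klf5 and Klf4 also fell. Several general intestinal regulators did not pass the test: Hnf4a had a log2 fold change of -0.14, Cdx2 of -0.00 and Gata6 of -0.01. Hnf4g, a nuclear receptor close to Hnf4a, was at 93.8, 159.7 and 166 FPKM in the controls and 33.5, 50.5 and 43.6 in the double mutants, with all double mutants below all controls.

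Genes of enterocyte metabolism fell too. Of 33 tested genes of fatty acid oxidation and PPAR targets 15 fell and 1 (Acot1) rose, with a median of -0.67. Ehhadh, a peroxisomal oxidation enzyme, was at 35.6, 43.3 and 45.5 FPKM in the controls and 14.8, 18.8 and 15.2 in the double mutants (log2 fold change -1.30 with SE 0.14 and limma adjusted p = 0.0102), and Crat, carnitine acetyltransferase, had a log2 fold change of -1.20 with SE 0.17 and limma adjusted p = 0.0152. Of 39 tested xenobiotic metabolism genes 19 fell and 0 rose (0 unadjusted, median -1.13). Cyp2b10, a drug-inducible cytochrome, was at 14.4, 18.9 and 45.4 FPKM in the controls and 0.682, 1.98 and 3.01 in the double mutants (log2 fold change -3.16 with SE 0.49 and limma adjusted p = 0.0168). The sulfotransferase Sult1d1 was at 76, 141 and 131 FPKM in the controls and 17.3, 24.5 and 20.2 in the double mutants (log2 fold change -2.39 with SE 0.26 and limma adjusted p = 0.0105).

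In these bulk samples, fewer cells of a type and less RNA per cell cannot be told apart. Control 2 stood highest in each enterocyte list: the mean log2 level of the digestive enzymes was -0.43, -0.38 and 0.81 in the controls and -2.50, -1.80 and -1.95 in the double mutants relative to the control mean, and that of the transporters -0.32, -0.22 and 0.54 in the controls and -1.79, -1.35 and -1.55 in the double mutants. Called digestive enzymes numbered 16, 11 and 14 without controls 0, 1 and 2, and 1, 6 and 0 without double mutants 0, 1 and 2. Of the 16 without control 0, 15 fell and 1 rose. For transporters the count was 20, 19 and 18 without controls 0, 1 and 2, and 5, 14 and 2 without double mutants 0, 1 and 2. For fat absorption it was 15, 3 and 5 without controls 0, 1 and 2, and 1, 2 and 0 without double mutants 0, 1 and 2. Microvillus genes called were 12, 8 and 8 without controls 0, 1 and 2, and 1, 5 and 0 without double mutants 0, 1 and 2. Enterocyte factors called were 10, 5 and 4 without controls 0, 1 and 2, and 2, 5 and 0 without double mutants 0, 1 and 2. Oxidation genes called were 20, 3 and 5 without controls 0, 1 and 2, and 1, 4 and 0 without double mutants 0, 1 and 2. Xenobiotic metabolism genes called were 19, 5 and 10 without controls 0, 1 and 2, and 1, 5 and 0 without double mutants 0, 1 and 2. With sex as a covariate, 6 fat absorption, 7 microvillus and 8 oxidation genes fell, and Acot1 was not called. With no filter on low values 4, 7 and 7 of these fell, and 10 xenobiotic metabolism genes.

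**Figure D4:**
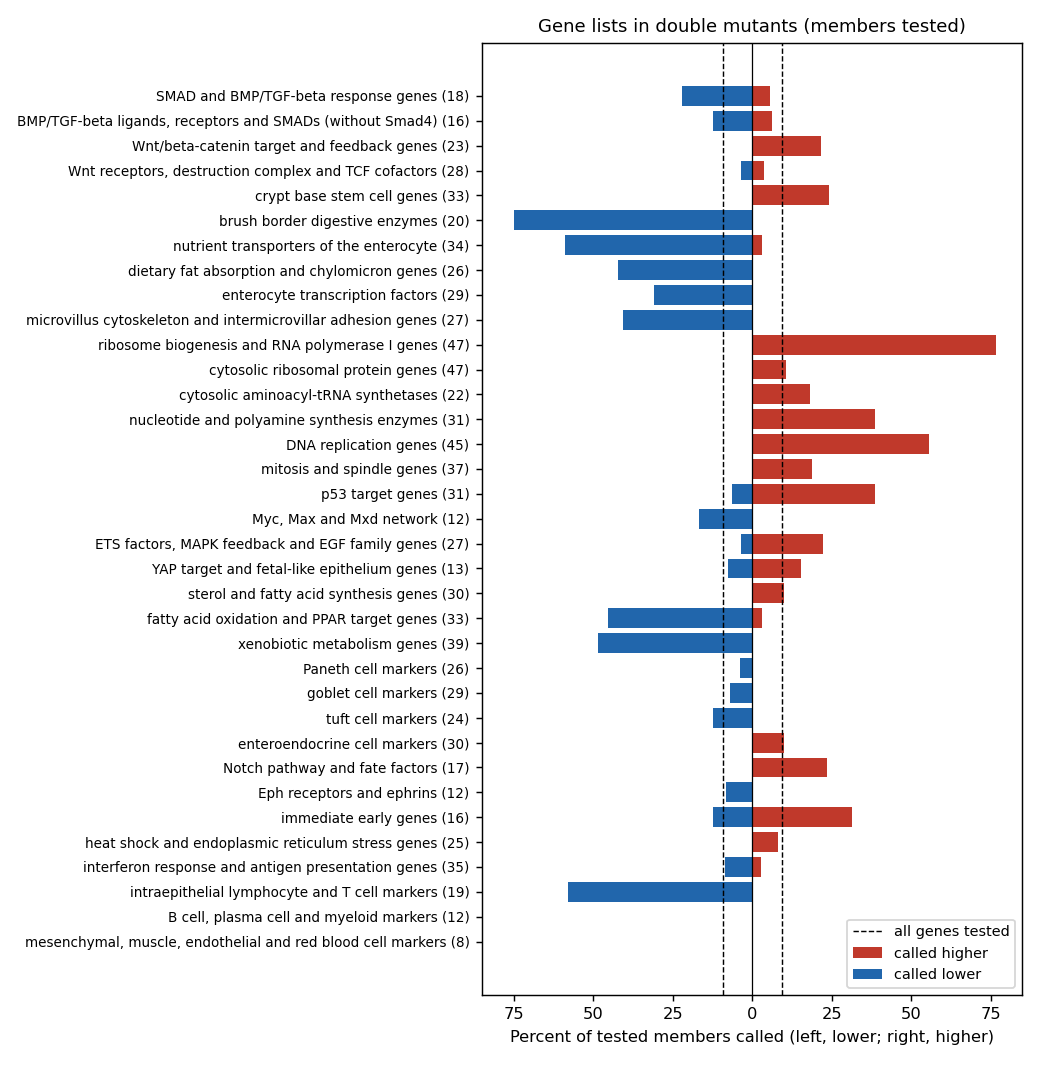
Percent of tested members of each gene list called lower (blue, to the left) and higher (red, to the right), with the number of tested members in brackets and dashed lines at the shares of all genes tested, 9.09% lower and 9.39% higher. Ribosome biogenesis and DNA replication extend furthest to the right, and digestive enzymes, transporters and T cell markers furthest to the left.

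**Figure D5:**
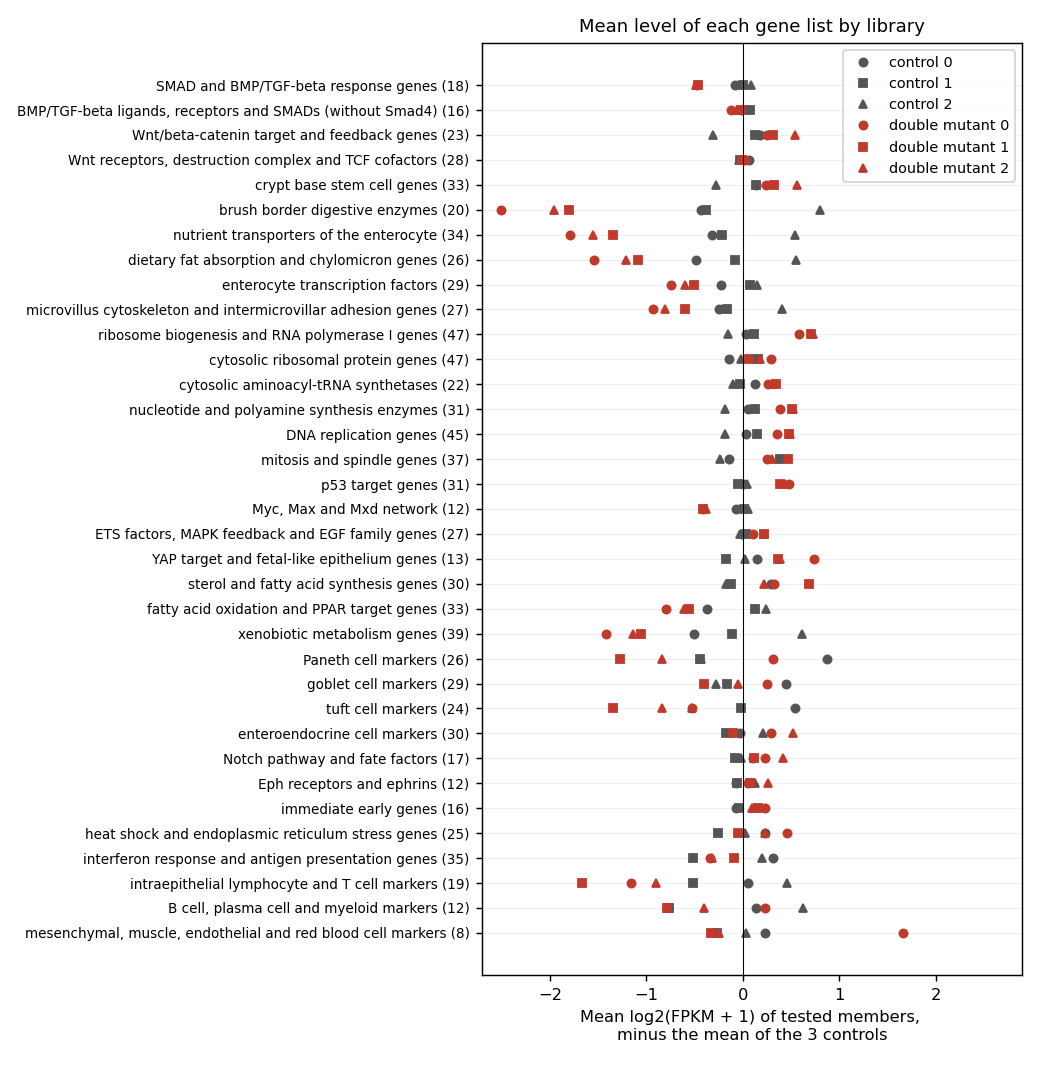
Mean log2(FPKM + 1) of the tested members of each list in each library, minus the mean of the 3 controls (horizontal axis), controls in grey and double mutants in red, with a circle, square and triangle for libraries 0, 1 and 2. Control 2 lies above the other controls in the digestive enzyme and transporter lists, and double mutant 0 stands apart from all others in the mesenchymal and red blood cell list.

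Most ribosome biogenesis genes rose. Of 47 tested members 36 rose and 0 fell (0 unadjusted), 76.6% against 9.39% of all genes, and the fold change was positive in all 47, with a median of 0.65. Nop56, a core protein of box C/D small nucleolar particles, was at 37.3, 35.8 and 36.4 FPKM in the controls and 68.2, 64.3 and 75.2 in the double mutants (log2 fold change 0.90 with SE 0.09 and limma adjusted p = 0.00997). The controls lay within a narrow range and all double mutants were above it. Bysl, needed for the small subunit, was at 7.5, 5.8 and 6.92 FPKM in the controls and 14.7, 15.9 and 15.8 in the double mutants (log2 fold change 1.09 with SE 0.11 and limma adjusted p = 0.00997). Rrp9, which binds the U3 particle, was at 19.1, 19 and 17.4 FPKM in the controls and 32.8, 33.7 and 36.8 in the double mutants (log2 fold change 0.86 with SE 0.09 and limma adjusted p = 0.00997). Rrs1, a large subunit factor, had a log2 fold change of 0.93 with SE 0.10 and limma adjusted p = 0.0105. Fbl, Ncl and Ddx21 were above the median of the list but not called, with log2 fold changes of 0.68, 0.72 and 0.72 (limma adjusted p = 0.112, 0.0584 and 0.0504). Members called numbered 26, 34 and 26 without controls 0, 1 and 2, and 10, 16 and 0 without double mutants 0, 1 and 2.

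The promoter of Nop2, an RNA methyltransferase of the large subunit, is shown for its E-box, the CACGTG element that Myc and related factors bind.
Nop2, chr6:125131763-125131882, plus strand: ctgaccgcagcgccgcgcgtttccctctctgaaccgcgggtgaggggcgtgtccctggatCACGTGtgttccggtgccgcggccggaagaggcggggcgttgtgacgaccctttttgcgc
Nop2 was at 27.8, 30.1 and 25.9 FPKM in the controls and 47.4, 57 and 58.6 in the double mutants (log2 fold change 0.93 with SE 0.12 and limma adjusted p = 0.0124). The E-box, the same on both strands, was in 19.6% of the 46 windows of this list, 21.2% of the 33 of nucleotide and polyamine synthesis, 12.5% of those of higher genes and 10.2% of those of all tested genes. Of the 9 ribosome biogenesis genes with it, 5 rose and 4 were not called.

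Of 12 tested members of the Myc network 0 rose (0 unadjusted) and 2 fell, beside 9.09% lower among all genes. Both that fell are antagonists of Myc that compete for Max. Mxd1 was at 36.2, 39.7 and 63.6 FPKM in the controls and 7.65, 12 and 9.61 in the double mutants (log2 fold change -2.12 with SE 0.25 and limma adjusted p = 0.0117). Mxi1 was at 8.27, 9.3 and 11.3 FPKM in the controls and 4.05, 5.16 and 4.29 in the double mutants (log2 fold change -0.95 with SE 0.14 and limma adjusted p = 0.0164). Myc was at 43.1, 44.9 and 25.5 FPKM in the controls and 46.2, 41.4 and 54.3 in the double mutants (log2 fold change 0.35 with SE 0.23 and limma adjusted p = 0.329), which did not pass. The counts of called members were 2, 2 and 2 without controls 0, 1 and 2, and 0, 2 and 0 without double mutants 0, 1 and 2.

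Part of the other growth genes rose. Among 31 tested enzymes of nucleotide and polyamine synthesis 12 rose and 0 fell (1 unadjusted, median 0.44). Srm, spermidine synthase, was at 29, 19.9 and 21.7 FPKM in the controls and 56, 46.3 and 56.1 in the double mutants (log2 fold change 1.15 with SE 0.16 and limma adjusted p = 0.0143). Shmt2, which feeds mitochondrial one-carbon units, was at 35, 31.3 and 25.5 FPKM in the controls and 69.7, 74.7 and 78.5 in the double mutants (log2 fold change 1.26 with SE 0.13 and limma adjusted p = 0.0102). Of 22 cytosolic aminoacyl-tRNA synthetases and partners 4 rose and 0 fell (0 unadjusted, median 0.31): Vars, Mars, Farsa and Iars. Vars had a log2 fold change of 0.78 with SE 0.11 and limma adjusted p = 0.0155. Of 47 ribosomal protein genes 5 rose and 0 fell (0 unadjusted), 10.6%, near the share of all genes, with a median of 0.13. Many of these have processed copies that can take reads, and the called Rpl34 was at only 14.9, 5.95 and 10.1 FPKM in the controls and 35.7, 34.3 and 29.4 in the double mutants (log2 fold change 1.67 with SE 0.29 and limma adjusted p = 0.0203). Called synthesis enzymes numbered 12, 7 and 8 without controls 0, 1 and 2, and 1, 4 and 0 without double mutants 0, 1 and 2. Called synthetases numbered 7, 2 and 2 without controls 0, 1 and 2, and 0, 2 and 0 without double mutants 0, 1 and 2, and called ribosomal proteins 4, 2 and 3 without controls 0, 1 and 2, and 0, 1 and 0 without double mutants 0, 1 and 2. With no filter on low values 2 ribosomal proteins rose, and with a mean of at least 5 FPKM 3 of 38.

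Genes of DNA replication and some of mitosis rose. Of 45 tested replication genes 25 rose and 0 fell (0 unadjusted, median 0.45), and of 37 mitotic genes 7 rose and 0 fell (0 unadjusted, median 0.31). The difference between the lists was not tested. Cdc6, a helicase loader, was at 4.11, 4.46 and 3.65 FPKM in the controls and 6.75, 6.73 and 7.49 in the double mutants (log2 fold change 0.66 with SE 0.11 and limma adjusted p = 0.0181). Orc1, of the origin recognition complex, was at 3.86, 3.02 and 2.9 FPKM in the controls and 5.99, 6.95 and 5.76 in the double mutants (log2 fold change 0.77 with SE 0.13 and limma adjusted p = 0.0201). Fen1, a flap nuclease, had a log2 fold change of 0.76 with SE 0.14 and limma adjusted p = 0.0207. Plk1, a mitotic kinase, was at 32.3, 30.5 and 23.9 FPKM in the controls and 50.3, 52.5 and 52.9 in the double mutants (log2 fold change 0.83 with SE 0.13 and limma adjusted p = 0.0164). Pcna and Mki67 were not called, at log2 fold changes of 0.09 and 0.22. Called replication genes numbered 6, 13 and 6 without controls 0, 1 and 2, and 0, 1 and 0 without double mutants 0, 1 and 2. Called mitosis genes numbered 2, 16 and 2 without controls 0, 1 and 2, and 0, 1 and 0 without double mutants 0, 1 and 2. With no filter on low values 13 replication and 3 mitosis genes rose.

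More targets of p53 rose than fell. Of 31 tested members 12 rose, 38.7% against the 9.39% of all genes, with a list median of 0.31. In the same list 2 fell, beside 9.09% of all genes. Phlda3, an inhibitor of AKT, was at 0.255, 0.258 and 0.587 FPKM in the controls and 9.05, 5.34 and 9.66 in the double mutants (log2 fold change 2.69 with SE 0.24 and limma adjusted p = 0.00694), so the lowest double mutant was above every control. Gtse1, a p53 regulator of G2, was at 7.09, 8.08 and 5.98 FPKM in the controls and 21.2, 19.5 and 20.4 in the double mutants (log2 fold change 1.42 with SE 0.12 and limma adjusted p = 0.00694). Bax, a mediator of apoptosis, was at 49.3, 53.5 and 54.9 FPKM in the controls and 108, 98.5 and 107 in the double mutants (log2 fold change 0.98 with SE 0.09 and limma adjusted p = 0.00832). Sesn2, a stress-induced inhibitor of mTORC1, was at 3.53, 2.97 and 3.36 FPKM in the controls and 7.44, 7.28 and 8.15 in the double mutants (log2 fold change 1.01 with SE 0.11 and limma adjusted p = 0.00997). The 2 that fell were Sesn1, a relative of Sesn2, at 31, 53.8 and 61.6 FPKM in the controls and 15.1, 16.3 and 16.3 in the double mutants (log2 fold change -1.51 with SE 0.25 and limma adjusted p = 0.0181), and Pmaip1, the apoptosis gene Noxa (log2 fold change -0.64 with SE 0.14 and limma adjusted p = 0.0299). Cdkn1a, the cell cycle inhibitor p21, and Mdm2, which degrades p53, did not pass (log2 fold change -0.06 with SE 0.14 and limma adjusted p = 0.785 and log2 fold change 0.31 with SE 0.12 and limma adjusted p = 0.117). Members called numbered 11, 11 and 10 without controls 0, 1 and 2, and 4, 8 and 0 without double mutants 0, 1 and 2. Of the 22 with a mean of at least 5 FPKM, 7 rose and 2 fell.

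Etv4, an ETS factor downstream of receptor tyrosine kinases, was among the most increased genes, at 1.12, 0.705 and 0.726 FPKM in the controls and 7.96, 6.34 and 5.91 in the double mutants (log2 fold change 2.06 with SE 0.16 and limma adjusted p = 0.00694). It kept its call in each of the 6 fits with a library left out. Of 27 tested ETS, MAPK feedback and EGF family genes 6 rose and 1 fell, beside 9.39% higher and 9.09% lower among all genes. The relative Etv5 was at 0.679, 1.24 and 0.95 FPKM in the controls and 2.76, 3.3 and 4.28 in the double mutants (log2 fold change 1.18 with SE 0.19 and limma adjusted p = 0.018). Areg, the EGF receptor ligand amphiregulin, was at 0.891, 0.737 and 1.69 FPKM in the controls and 5.24, 4.9 and 3.38 in the double mutants (log2 fold change 1.40 with SE 0.23 and limma adjusted p = 0.0181). Dusp4, Lrig1 and Lrig3 also rose. Erbb3, a receptor of the EGF receptor family, fell to 39% of control (log2 fold change -1.33 with SE 0.22 and limma adjusted p = 0.0178). The feedback genes Dusp6 and Spry2 had log2 fold changes of -0.24 and 0.33, uncalled. Members called numbered 7, 5 and 7 without controls 0, 1 and 2, and 1, 2 and 1 without double mutants 0, 1 and 2. Of the 18 with a mean of at least 5 FPKM, 2 rose and 1 fell.

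Immediate early genes were mixed, with 5 of 16 higher (Egr1, Jun, Ier2, Jund and Junb) and 2 lower (Klf6 and Fosl2). For this list and the next ones, the shares of all genes tested are 9.39% higher and 9.09% lower. Klf6, a Kruppel-like factor, was at 34.5, 34.7 and 34.2 FPKM in the controls and 15.4, 16.4 and 14.1 in the double mutants (log2 fold change -1.12 with SE 0.09 and limma adjusted p = 0.00694), with very little spread in either group. Egr1 was at 1.81, 4.38 and 3.07 FPKM in the controls and 13, 9.32 and 12.9 in the double mutants (log2 fold change 1.68 with SE 0.26 and limma adjusted p = 0.0168). Of 13 YAP target and fetal epithelium genes Areg and Birc5 rose and Il33, an alarmin, fell (log2 fold change -0.98 with SE 0.23 and limma adjusted p = 0.0378). Areg is also counted in the EGF family list and Birc5 in the mitosis list. Clu, a marker of regenerating crypts, was at 3.99, 1.93 and 2.62 FPKM in the controls and 10.9, 4.64 and 7.76 in the double mutants (log2 fold change 1.16 with SE 0.32 and limma adjusted p = 0.0529) and was not called. Among 17 Notch pathway and fate genes 4 rose and 0 fell (0 unadjusted): Neurog3, Hes6, Jag1 and Nrarp. Jag1, a Notch ligand, was at 3.88, 4.36 and 5.11 FPKM in the controls and 6.29, 7.7 and 7.96 in the double mutants (log2 fold change 0.61 with SE 0.14 and limma adjusted p = 0.0328). Of 12 Eph receptors and ephrins, which sort cells along the crypt axis, 0 rose (5 unadjusted) and 1 fell, with a median of 0.36. Efna1 fell (log2 fold change -0.77 with SE 0.14 and limma adjusted p = 0.0207), and Ephb2 and Ephb3 had log2 fold changes of 0.52 and 0.62, uncalled. Immediate early genes called numbered 5, 5 and 6 without controls 0, 1 and 2, and 2, 4 and 1 without double mutants 0, 1 and 2. YAP and fetal genes called numbered 1, 3 and 1 without controls 0, 1 and 2, and 0, 2 and 0 without double mutants 0, 1 and 2. Notch genes called numbered 2, 0 and 2 without controls 0, 1 and 2, and 0, 1 and 0 without double mutants 0, 1 and 2, and Eph genes 2, 1 and 2 without controls 0, 1 and 2, and 0, 0 and 0 without double mutants 0, 1 and 2. The Eph gene called without control 1 rose. With sex as a covariate 1 Notch gene rose, and with no filter on low values 2.

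For enteroendocrine cells, a secretory lineage that makes gut hormones, 3 of 30 tested markers rose, near the 9.39% of all genes. In this list 0 fell (0 unadjusted). Neurog3, the factor that starts this lineage, was at 4.74, 4.8 and 4.64 FPKM in the controls and 9.55, 8.25 and 13.7 in the double mutants (log2 fold change 0.98 with SE 0.18 and limma adjusted p = 0.0218). Pyy, peptide YY, was at 4.45, 1.77 and 6.84 FPKM in the controls and 23, 15.7 and 17 in the double mutants (log2 fold change 1.98 with SE 0.38 and limma adjusted p = 0.0243), and Insm1 had a log2 fold change of 0.66 with SE 0.16 and limma adjusted p = 0.0386. Chgb, a granule protein, was at 64.8, 66.4 and 78.2 FPKM in the controls and 91.5, 82.8 and 152 in the double mutants (limma adjusted p = 0.134). Tuft cell markers, from the chemosensory cells, had 3 of 24 lower, Alox5 and Siglec5 among them, beside 9.09% of all genes. In this list 0 rose (0 unadjusted), and the fold change was negative in all 24 (median -0.85). Alox5, a lipoxygenase, was at 9.76, 6 and 3.55 FPKM in the controls and 2.43, 0.518 and 1.19 in the double mutants (log2 fold change -1.64 with SE 0.41 and limma adjusted p = 0.042). Dclk1, the usual tuft marker, was at 15.2, 8.61 and 5.53 FPKM in the controls and 5.22, 2.85 and 4.41 in the double mutants (limma adjusted p = 0.1).

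Paneth and goblet markers were called less often than all genes, a difference that was not tested. Of 26 Paneth list members 0 rose (0 unadjusted) and 1 fell, Guca2b (log2 fold change -1.33 with SE 0.28 and limma adjusted p = 0.0289), which encodes uroguanylin and is also made by enterocytes. Lyz1, lysozyme, was at 24141, 7709 and 7939 FPKM in the controls and 13176, 6217 and 11093 in the double mutants (limma adjusted p = 0.813). Defensins are near-identical copies, so their reads can be split, and the mean log2 level of the list ran over the libraries as 0.87, -0.44 and -0.43 in the controls and 0.31, -1.28 and -0.84 in the double mutants. Of 29 goblet markers 0 rose (1 unadjusted), and Clca3 and Capn9 fell (log2 fold change -2.33 with SE 0.28 and limma adjusted p = 0.0121 and log2 fold change -0.81 with SE 0.15 and limma adjusted p = 0.0216). Muc2, the main mucin, was at 404, 173 and 333 FPKM in the controls and 419.9, 242 and 316 in the double mutants (limma adjusted p = 0.785), with overlapping groups. Called enteroendocrine markers numbered 2, 1 and 1 without controls 0, 1 and 2, and 0, 2 and 0 without double mutants 0, 1 and 2, and tuft markers 0, 0 and 5 without controls 0, 1 and 2, and 0, 0 and 0 without double mutants 0, 1 and 2. Paneth markers called numbered 1, 1 and 1 without controls 0, 1 and 2, and 0, 0 and 0 without double mutants 0, 1 and 2, and goblet markers 3, 3 and 2 without controls 0, 1 and 2, and 0, 1 and 0 without double mutants 0, 1 and 2. With sex as a covariate, or with no filter on low values, 0 tuft markers were called.

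RNA of intraepithelial T cells was lower in the double mutants. Of 19 tested markers 11 fell and 0 rose (0 unadjusted), and all 19 fold changes were negative (median -1.34). Ccl5, a chemokine of effector T cells, was at 116, 92.4 and 183 FPKM in the controls and 37.9, 15.3 and 31.3 in the double mutants (log2 fold change -2.21 with SE 0.39 and limma adjusted p = 0.0205). Gzmb, the cytotoxic protease granzyme B, was at 43.6, 19.3 and 39.9 FPKM in the controls and 9.73, 4.97 and 11.1 in the double mutants (log2 fold change -1.86 with SE 0.39 and limma adjusted p = 0.0287). Cd3g, a subunit of the T cell receptor complex, was at 11.8, 7.96 and 18.7 FPKM in the controls and 3.24, 2.21 and 3.86 in the double mutants (log2 fold change -1.70 with SE 0.31 and limma adjusted p = 0.0216). Cd8a was at 11.2, 6.61 and 16.1 FPKM in the controls and 3.27, 2.23 and 3.96 in the double mutants (log2 fold change -1.51 with SE 0.32 and limma adjusted p = 0.0289). Control 1 was the lowest control in this list, and the log2 means relative to the controls were 0.06, -0.51 and 0.46 in the controls and -1.16, -1.67 and -0.90 in the double mutants. Villin does not drive the recombinase in these cells, and how many were in each preparation was not tested. Among 12 B cell and myeloid markers and 8 of mesenchyme, endothelium and blood, 0 rose and 0 fell by limma. At an unadjusted p below 0.05, 1 rose and 2 fell in the first list, and 0 rose and 1 fell in the second. The means of the second list were 0.23, -0.27 and 0.04 in the controls and 1.66, -0.33 and -0.25 in the double mutants, and 16 of its genes in the table were under the filter on low values. T cell markers called numbered 3, 10 and 3 without controls 0, 1 and 2, and 0, 2 and 0 without double mutants 0, 1 and 2. With no filter on low values 4 fell, and 7 of the 8 with a mean of at least 5 FPKM.

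Of 35 antiviral and antigen presentation genes 1 rose and 3 fell, beside 9.39% higher and 9.09% lower among all genes. Ifit1, an interferon-stimulated RNA-binding protein, was at 6.8, 3.75 and 5.44 FPKM in the controls and 1.15, 1.73 and 1.8 in the double mutants (log2 fold change -1.29 with SE 0.22 and limma adjusted p = 0.0195). Usp18, which restrains interferon signalling, had a log2 fold change of -1.49 with SE 0.38 and limma adjusted p = 0.0436, and Irf7 had a log2 fold change of -0.90 with SE 0.21 and limma adjusted p = 0.0379. Ifitm3, also interferon-responsive, rose, at 184, 119 and 114 FPKM in the controls and 322, 396 and 377 in the double mutants (log2 fold change 1.42 with SE 0.21 and limma adjusted p = 0.016). Of 30 sterol and fatty acid synthesis genes 3 rose and 0 fell (1 unadjusted), near the 9.39% of all genes. Srebf1, a transcription factor of lipid synthesis, was among them (log2 fold change 0.60 with SE 0.10 and limma adjusted p = 0.0182). Of 25 heat shock and endoplasmic reticulum stress genes 2 rose and 0 fell (2 unadjusted). Hspd1 and Hspe1, the paired mitochondrial chaperonins, rose (log2 fold change 0.57 with SE 0.11 and limma adjusted p = 0.0266 and log2 fold change 0.53 with SE 0.14 and limma adjusted p = 0.0482). Interferon and presentation genes called numbered 5, 6 and 3 without controls 0, 1 and 2, and 0, 1 and 0 without double mutants 0, 1 and 2. Sterol genes called numbered 8, 1 and 1 without controls 0, 1 and 2, and 0, 0 and 0 without double mutants 0, 1 and 2, and stress genes 1, 1 and 0 without controls 0, 1 and 2, and 0, 0 and 0 without double mutants 0, 1 and 2. With sex as a covariate 6 sterol genes and 1 stress gene rose, and 1 interferon or presentation gene rose and 1 fell. With no filter on low values 1 sterol and 1 stress gene rose.

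Outside the lists, the 12 most increased named genes included Mpp3, a membrane scaffold, at 1.59, 0.394 and 0.748 FPKM in the controls and 9, 6.99 and 7.3 in the double mutants (log2 fold change 2.24 with SE 0.25 and limma adjusted p = 0.0106). R3hdml was at 0.453, 0.268 and 0.26 FPKM in the controls and 6.05, 5.07 and 3.98 in the double mutants (log2 fold change 2.17 with SE 0.18 and limma adjusted p = 0.00694). Phlda2, an imprinted growth regulator, was at 1.39, 1.3 and 1 FPKM in the controls and 9.86, 10.2 and 6.92 in the double mutants (log2 fold change 2.15 with SE 0.17 and limma adjusted p = 0.00694). Akr1b8, an aldo-keto reductase, was at 4.12, 2.56 and 5.6 FPKM in the controls and 22.3, 11.7 and 18.2 in the double mutants (log2 fold change 1.85 with SE 0.30 and limma adjusted p = 0.018). Lrp8, a receptor of reelin, was at 1.12, 0.391 and 0.583 FPKM in the controls and 5.33, 4.94 and 4.45 in the double mutants (log2 fold change 1.82 with SE 0.19 and limma adjusted p = 0.0102). Acta1, Atg9b and Ugt1a6b were also in the higher set, with log2 fold changes of 1.91, 1.86 and 2.06. Ugt1a6b shares exons with other Ugt1a genes, so its reads are uncertain. Among the 12 most reduced, Maob, a monoamine oxidase, was at 24, 46.2 and 84.7 FPKM in the controls and 2.36, 3.64 and 4.9 in the double mutants (log2 fold change -3.37 with SE 0.46 and limma adjusted p = 0.0133). Arg2, mitochondrial arginase, was at 119, 269 and 365 FPKM in the controls and 13.4, 35.4 and 31.1 in the double mutants (log2 fold change -3.15 with SE 0.51 and limma adjusted p = 0.0179).

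Beside the Smad4 KO crypts, whose comparison has the same controls and called 4 of 11849 genes (0.0338%), the double mutants are given without a test between the tables. Smad4 itself had a log2 fold change of -2.21 in double mutants and -2.13 in Smad4 KO crypts. Medians of the lists, double mutant first, were -0.29 and -0.24 for SMAD response genes, -2.18 and -1.39 for digestive enzymes, 0.65 and 0.45 for ribosome biogenesis, and 0.33 and 0.01 for stem cell genes. Lgr5 had 1.08 and 0.19, and the 3 Smad4 KO libraries were at 2.64, 9.32 and 19.1 FPKM. Apoc2 had -1.24 and -0.00, with Smad4 KO libraries at 448, 43.1 and 196 FPKM. Ifit1 had -1.29 and -0.03, with Smad4 KO libraries at 11.8, 0.922 and 7.14 FPKM. Neurog3 had 0.98 and 0.13, with 4.55, 4.47 and 6.35 FPKM. Phlda3 had 2.69 and 2.87, with 24.2, 5.44 and 4.82 FPKM, and Etv4 2.06 and 1.57, with 8.61, 1.64 and 5.04 FPKM. The Smad4 KO libraries were far apart in several of these genes, and library 0 was the highest for Sis, at 273, 43.5 and 42.7 FPKM, and for Lct, at 64.7, 4.22 and 9.83 FPKM. These genes were chosen after their values were seen, and none of the differences between the mutant groups was tested.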

How the data were processed

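Libraries of jejunal crypt RNA were made with the Illumina TruSeq RNA Library Prep kit v2, which does not mark strand, so overlapping and antisense genes cannot be told apart. The authors deposited FPKM values per gene in 2 tables normalized separately. Cuffnorm 2.2.1, Cuffdiff 2.2.1 and TopHat2 2.1.1 are named with build mm9, per the submitters' processing notes. No source used here names the annotation. Between the tables the values of a control library had a constant ratio (control 0 1.03, control 1 1.06, control 2 1.04). FPKM holds no read numbers. Gapdh, which every cell uses, was at 0.761, 0.501 and 0.641 FPKM in controls 0, 1 and 2, so a 0 is reported only as listed. The most common ratio of low values between control 0 and another library was shared by at most 0.324% of genes, so relative depth was not settled and no counting intervals are given.

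On log2(FPKM + 1), genes whose mean reached 1 FPKM were fitted by limma 3.58.1 (R 4.3.3) with a mean-variance trend, no covariates, two-sided tests and Benjamini-Hochberg adjustment over all genes tested, and called at an adjusted p below 0.05. A log2 fold change on this scale understates the change of low genes. Simulated data with 200 changed genes were used to check the fit. Lists were described by counts and medians, with no set test. The members and lists were chosen with earlier results of these data known.

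Named genes were Smad4, Ctnnb1, Id3, Lgr5, Etv4 and Sis, for each direction the 12 most changed called genes whose groups did not overlap, without predicted, small RNA and sex-linked genes, the 4 called members of each list with the smallest p, and the 3 most abundant members of the SMAD, Wnt, stem cell and cell type lists. Some genes that this rule chose are not reported here, and other genes were chosen after their values were seen. Alternatives were the replicate block, sex as a covariate, other pseudocounts, filters and scalings, no trend, and each library left out. Promoter windows of 300 bases came from RefSeq (GRCm38.p6), matched by symbol and not by coordinate.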

Additional observations from a re-analysis of the deposited data

How the results depend on the processing

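No called gene considered for naming changed its sign under any alternative. Genes called higher ranged from 18 to 688 and genes called lower from 12 to 898 over the 6 fits that left out 1 library, both lowest without double mutant 2, against 1104 and 1069 with all libraries. Of the 2173 called genes, leaving out double mutant 2 kept 23, leaving out double mutant 0 kept 133, and the other libraries between 678 and 1338. List counts that another filter or the sex covariate moved by over 1.5 times stand beside most of those lists. In addition, 6 of the 28 sterol genes whose mean reached 5 FPKM rose, no filter left 0 Paneth markers called, and quantile normalization gave 4 higher and 1 lower YAP or fetal genes and 6 higher sterol genes. Fits that left out a library had fewer samples. With no filter on low values, 771 genes were higher and 621 lower, with more genes adjusted for. Sex as a covariate gave 801 and 718. The other scalings, filters, pseudocounts and the fit without a trend gave 994 to 1273 higher and 826 to 1104 lower. Scaling to equal sums without the 50 highest genes moved the median of all genes to 0.06 on the log2 scale.

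The replicate block gave 732 genes higher and 870 lower, and 12 of the 148 called genes considered for naming lost their call. Under the block 9 replication, 3 Wnt target and 5 stem cell genes were called higher, 5 enteroendocrine markers were higher and 1 lower, and 2 Paneth and 2 B cell or myeloid markers were lower. Samples with the same number had correlated deviations from their group means of 0.07, 0.13 and 0.04 over genes. Each library correlated best with its own number, which is a hint from the data and not from the design. For control 2 the lead was small, at 0.037 with double mutant 2 and 0.032 with double mutant 0. By sex-linked transcripts, numbers 1 and 2 had the same sex in both groups and number 0 did not. The second principal component held 18.9% of the variance. It stood at 39.3, -37.9 and 10.4 in controls 0, 1 and 2, and at 20.4, -36.6 and 4.5 in double mutants 0, 1 and 2. Its order over the numbers was thus the same in both groups, and the main fit does not model it. No label says that a number marks a shared mouse, litter or day. Depth is unknown from FPKM, so the precision of low genes cannot be given.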

Other observations

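Small nucleolar RNA entries and their host genes were outside the lists. Of 89 tested small nucleolar and Cajal body RNA entries 16 were called higher (18%, against 9.39% of all genes tested) and 0 lower by limma, 73 of 89 fold changes were positive, and the median log2 fold change was 1.41. The number called higher was 17, 8 and 11 without controls 0, 1 and 2, and 4, 11 and 3 without double mutants 0, 1 and 2. Most such RNAs lie inside introns of other genes, so their reads cannot be told apart from those of the host. Among 211 tested microRNA gene entries 4 were called higher (1.9%) and 1 lower, 126 of 211 fold changes were positive, and the median was 0.81. Snhg3, a host of small nucleolar RNAs, was at 57.6, 46.7 and 60.5 FPKM in the controls and 175, 122 and 143 in the double mutants (log2 fold change 1.39 with SE 0.17 and limma adjusted p = 0.0122). Snhg5 was at 32.1, 28.3 and 37.2 FPKM in the controls and 103, 62.8 and 77.7 in the double mutants (log2 fold change 1.27 with SE 0.20 and limma adjusted p = 0.0171). Gas5 was at 48.4, 28.3 and 55.6 FPKM in the controls and 117, 87.3 and 96.8 in the double mutants (log2 fold change 1.21 with SE 0.26 and limma adjusted p = 0.0307). Double mutant 0 was the highest library for all 3. Each of these hosts and the genes below was chosen after its values were seen.

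Other genes outside the lists are given one by one, with no count or share behind them. Phgdh, the first enzyme of serine synthesis, was at 2.71, 3.37 and 1.68 FPKM in the controls and 7.64, 6.69 and 8.18 in the double mutants (log2 fold change 1.27 with SE 0.20 and limma adjusted p = 0.0169). Slc7a5, a carrier of large neutral amino acids, was at 13.6, 9.33 and 7.95 FPKM in the controls and 30.8, 21 and 24.5 in the double mutants (log2 fold change 1.24 with SE 0.22 and limma adjusted p = 0.0207). Pdgfa, a platelet-derived growth factor chain that acts on mesenchyme, was at 20.9, 18.4 and 21.8 FPKM in the controls and 74, 65 and 76.4 in the double mutants (log2 fold change 1.77 with SE 0.11 and limma adjusted p = 0.0037). The cytokine Mif was at 24, 25.2 and 21.7 FPKM in the controls and 80.2, 65 and 63.1 in the double mutants (log2 fold change 1.51 with SE 0.12 and limma adjusted p = 0.00694). Cldn2, a claudin of leaky crypt junctions, was at 77.8, 88.4 and 65.5 FPKM in the controls and 149, 178 and 163 in the double mutants (log2 fold change 1.08 with SE 0.14 and limma adjusted p = 0.0127). On the lower side, Ada, adenosine deaminase, was at 29.7, 32.4 and 30.8 FPKM in the controls and 9.17, 8.14 and 7.11 in the double mutants (log2 fold change -1.81 with SE 0.11 and limma adjusted p = 0.0037). Akr1c14, a hydroxysteroid dehydrogenase, was at 18.9, 17.6 and 24.6 FPKM in the controls and 3.09, 2.65 and 2.91 in the double mutants (log2 fold change -2.45 with SE 0.14 and limma adjusted p = 0.00369). Scin, an actin-severing protein, was at 119, 116 and 102 FPKM in the controls and 21.4, 22 and 30.2 in the double mutants (log2 fold change -2.16 with SE 0.15 and limma adjusted p = 0.0061). Pdgfa, Mif, Ada, Akr1c14 and Scin kept their calls whichever library was left out. Snhg3, Snhg5, Gas5, Phgdh, Slc7a5 and Cldn2 each lost theirs in at least 1 of those fits.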
